A study of Mus musculus with 14 samples.

Results

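The zinc finger genes described here are the rows of the expression table whose symbol is Zfp followed by digits alone, with Zfp36 left out. The rule found 140 genes among 9558 rows. Gene expression had been measured by RNA sequencing in 14 single Tomato-positive cells from the bones of adult C57BL/6 mice of the genotype Prrx1-CreERT;Tomato. The Prrx1 promoter drives a Cre recombinase that works only after tamoxifen, so cells using this promoter at that time, and their descendants, become red with the reporter Tomato. All mice had received tamoxifen at 2 mg per 30 g of body weight daily for 3 days, and marrow had been flushed out before the bones were digested and red cells were picked singly. All 14 cells share these labels and form 1 group with no animal named. They therefore stand for 1 sample, and no test or p-value is given.

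Most genes named Zfp encode proteins with C2H2 zinc fingers, short folds in which a pair of cysteines and a pair of histidines hold a zinc ion and which stand in rows along the protein, each able to touch a few bases of DNA. Many also carry a KRAB domain, which binds the corepressor Trim28 and through it the histone methyltransferase Setdb1 and heterochromatin proteins. Such KRAB zinc finger proteins are best known for silencing transposable elements, and their genes lie in clusters that arose by duplication. Others work without KRAB, as transcription factors, RNA-binding proteins or ubiquitin ligases, and some, such as Zfp423, Zfp467 and Zfp521, are known in the mouse for steering mesenchymal cells between the fat and bone lineages.

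Levels are given as log2(FPKM + 1), where FPKM stands for fragments per kilobase of transcript, scaled to the mapped total of the library. The number of rows at 5 or more is the same in every cell, 1801. The number at exactly 0 is not, and runs from 1531 in cell 13 to 2254 in cell 10. A gene was called detected at a level of 1 or more. That threshold marked 5066 of the 9558 rows in each cell, so detection says where a gene ranks within its cell and not how many molecules were present. Depth is unknown, as the table holds no counts. The label of a Prrx1-marked mesenchymal cell was checked against Prrx1, Pdgfra, Dcn, Lum, Col1a1, Col1a2 and Col3a1. Of these 7 genes 5 were detected in all 14 cells, and Prrx1 and Pdgfra in 11 each. Cells 11 and 14 stood apart by the level of pan-haematopoietic genes, but leukocyte genes were not confined to them. Of 8 pan-haematopoietic genes 4 (Cd52, Srgn, Tyrobp and Fcer1g) were detected in all 14 cells. The same held for 4 of 7 neutrophil genes (Retnlg, Lcn2, Ngp and Camp). The summed level of the 8 pan-haematopoietic genes was 76.4 to 79.3 in cells 11 and 14 and 15.1 to 55.5 in the other 12. The mesenchymal sum was 28.2 and 52.8 in cells 14 and 11, against 42.4 to 69.4 in the rest.

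Detection of the Zfp genes was sparse. Over the 1960 combinations of a gene and a cell, 772 were detected, or 39.4% ± 5.13 (SD over the 14 cells), against 53.2% for the other rows. The share lay below that of the other rows in every cell, by 13.8 ± 5.21 percentage points on average. A further 447 values, or 22.8%, were exactly 0, and 741, or 37.8%, lay above 0 but below the threshold. Over all rows the corresponding shares were 19.3% and 27.7%. The median over the Zfp genes of the mean level was 1.13, against 1.72 for the other rows.

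A small part of the family was shared by all cells. Detection in all 14 cells was found for 4 of the 140 genes (2.86%), where 15.8% of all rows met that rule. In at least 7 cells 49 genes were detected (35.0%, against 51.7% of all rows), and in at most 3 cells 56 were (40.0%, against 26.9%). Detection in a single cell was found for 18 genes, 12.9% where all rows had 7.33%. At a level above 0 the picture was flatter, since 56 genes, or 40.0%, were above 0 in every cell, against 46.0% of all rows. With 14 cells a share is loosely bounded even for counting error. The exact 95% Clopper-Pearson interval starts at 76.8% for 14 of 14 cells, runs from 23.0% to 77.0% for 7 of 14, and ends at 33.9% for 1 of 14. It takes the cells as independent draws, which cells with no animal named may not be. It also does not cover the choice of genes by their count.

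**Figure D1:**
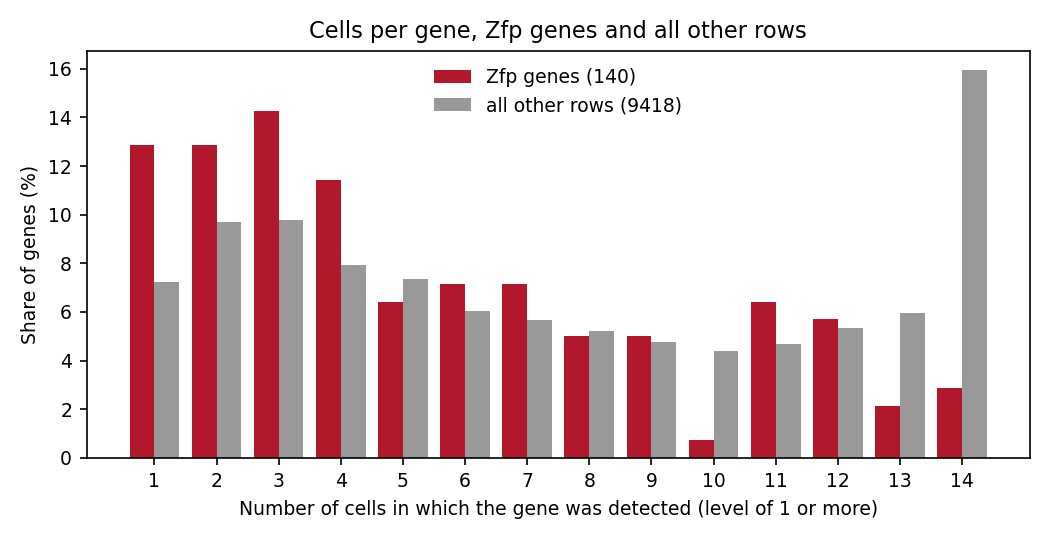
Share of genes (percent, vertical axis) by the number of cells in which they were detected (horizontal axis), for the 140 Zfp genes (red bars) and the 9418 other rows (grey bars). The red bars are higher at 1 to 4 cells and also at 6, 7, 9, 11 and 12 cells, and at 14 cells the red bar stands at 2.86% and the grey one at 15.9%.

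Detected values were mostly low. Of the 772 detected values 308 (39.9%) lay between 1 and 2, and 129 (16.7%) were at 5 or more, where the detected values of all rows had 23.6% and 35.6%. No cell brought 68 of the 140 genes to 5, and 44 genes reached that level in 1 cell, 16 in 2 cells and 12 in 3 or more. In all 72 genes (51.4%) reached 5 somewhere, against 71.1% of all rows. Zfp942, on chromosome 17, had the lowest maximum of the family, 1.90 in cell 4. Of the 49 genes detected in at least 7 cells, 35 had a median below 2 and 7 a median of 3 or more. For a gene detected in 7 or 8 of the 14 cells, the median is set by its lowest detected values. With 7 cells a value below the threshold enters as well. A low median there follows in part from the count of cells itself.

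**Figure D2:**
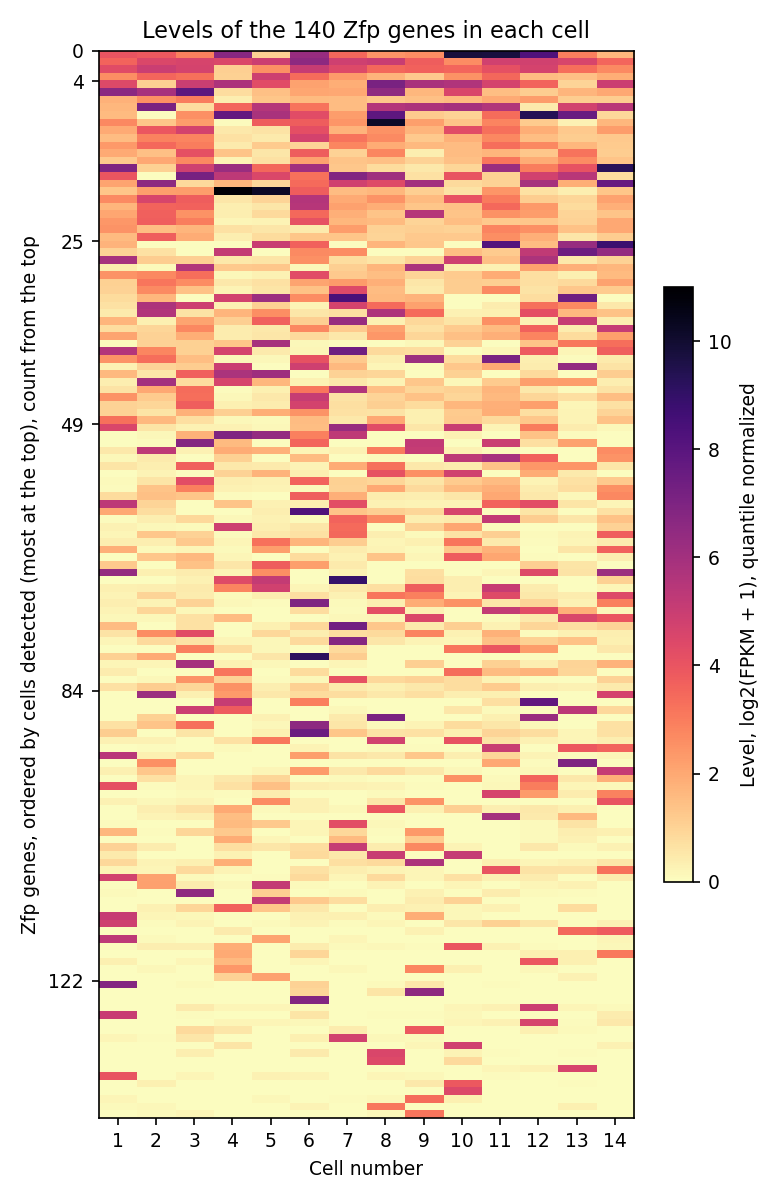
Level of each Zfp gene (rows, the most widely detected at the top) in each of the 14 cells (columns), as log2(FPKM + 1) after the deposited normalization. The top 4 rows are coloured in every cell, whereas 56 of the 140 rows pass the threshold in at most 3 cells.

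The 4 genes detected in every cell were Zfp952, Zfp229, Zfp113 and Zfp87, all with a match to a KRAB pattern in their longest annotated coding sequence. Zfp952 (ENSMUSG00000053390, chromosome 17, 32993129 to 33005457, plus strand, GRCm38) was the most even of them. Its level ran from 2.62 in cell 10 over a median of 4.60 to 6.56 in cell 6, with an SD of 0.91, and 12 further cells lay between 3.55 and 4.99. Zfp229 (ENSMUSG00000061544, chromosome 17, 21730795 to 21769342, plus strand) ran from 1.08 in cell 4 over a median of 3.89 to 5.04 in cell 6 (SD 1.10). Zfp113 (ENSMUSG00000037007, chromosome 5, 138139702 to 138155744, minus strand) ran from 1.07, again in cell 4, over a median of 2.40 to 4.87 in cell 5 (SD 1.10). Cell 4 was thus just above the threshold for both genes, and without that cell 6 Zfp genes were detected in every remaining cell.

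The upstream sequences of these genes are shown because the 3 have in common that no cell lacked them. They are the 250 bases before the RefSeq start (GRCm38.p6), 5′ to 3′ on the gene's strand, with each CpG in capitals. RefSeq's table had no entry used here for Zfp87. The Zfp229 stretch lies inside that gene as placed above, because the RefSeq start used is further along. The end of the Zfp952 stretch likewise overlaps the start of its gene as placed above.
Zfp952 upstream, chr17:32992889-32993138, plus strand: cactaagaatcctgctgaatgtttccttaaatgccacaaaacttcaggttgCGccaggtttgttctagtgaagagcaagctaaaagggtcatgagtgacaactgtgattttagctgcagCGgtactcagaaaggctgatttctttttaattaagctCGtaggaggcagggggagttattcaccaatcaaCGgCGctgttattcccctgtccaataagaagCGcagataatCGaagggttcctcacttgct
Zfp229 upstream, chr17:21733474-21733723, plus strand: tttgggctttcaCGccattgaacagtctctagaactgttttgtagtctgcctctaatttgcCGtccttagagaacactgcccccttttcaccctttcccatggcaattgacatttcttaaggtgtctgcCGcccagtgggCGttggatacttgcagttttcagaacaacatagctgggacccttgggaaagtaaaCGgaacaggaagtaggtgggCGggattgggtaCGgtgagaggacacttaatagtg
Zfp113 upstream, chr5:138155745-138155994, minus strand: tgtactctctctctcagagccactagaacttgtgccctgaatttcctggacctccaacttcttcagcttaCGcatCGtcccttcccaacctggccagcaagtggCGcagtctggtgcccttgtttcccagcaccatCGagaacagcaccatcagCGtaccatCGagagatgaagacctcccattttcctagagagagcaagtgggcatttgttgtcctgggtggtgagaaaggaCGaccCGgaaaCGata
The 3 stretches held 7, 7 and 9 CpGs, and none held the motif TATAAA or its reverse complement. Only the Zfp229 stretch matched GGGCGG, a GC box, on either strand, while Zfp952 and Zfp229 matched CCAAT on either strand. Over the 114 Zfp genes with a RefSeq entry the median was 12.5 CpGs, with 59 (51.8%) matching GGGCGG, 49 (43.0%) CCAAT and 6 (5.3%) TATAAA. Other rows of the table had a median of 16 CpGs over 7254 promoters, with 59.9%, 36.2% and 6.9% matching. Of all 32851 promoters listed 32.7%, 33.8% and 12.4% matched. That last set takes every entry listed, whereas the sets before it take the first entry per gene. The 41 Zfp genes detected in at least 7 cells had a median of 10 CpGs, and the 42 detected in at most 3 cells a median of 13.

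Zfp87 (ENSMUSG00000097333, chromosome 13, 67515781 to 67526177, minus strand) was detected in every cell but spread far more than the other 3. Cells 10, 11, 12, 4 and 6 had levels of 9.78, 9.71, 8.28, 6.74 and 6.28. The 9 other cells ran from 1.05 (cell 5) up to 4.02 (cell 1). The median was 3.67 and the SD 2.93. Cells 10, 11 and 12 thus stood above all others, with none between 6.74 and 8.28.

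Below these 4, the genes with the highest means were detected in most cells and high in some. Zfp207, whose protein (BuGZ in the human) binds Bub3 and helps chromosomes attach to the spindle, was detected in 13 cells, from 0.95 in cell 13 over a median of 4.54 to 7.11 in cell 8 (SD 1.91). Zfp706, a very short zinc finger protein, had the highest median of the family, 5.07, and ran from 0.47 in cell 12 to 7.12 in cell 2. It was at 5 or more in 7 cells, more than any other Zfp gene. Zfp326, which in the human is part of a complex joining RNA polymerase II to messenger ribonucleoproteins, passed the threshold in 11 cells, had a median of 4.24, was at 0 in cell 2 and reached 7.17 in cell 3. Each of these 3 genes had cells both near 0 or 1 and above 7.

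Zfp131, which encodes a protein with a BTB domain, was split. It passed the threshold in 13 cells and had a median of 2.00, and cells 3, 1, 8 and 2 held it at 7.87, 6.64, 6.51 and 5.85. No cell had a value between 4.52, in cell 10, and 5.85. Zfp560 peaked at 9.35 in cell 12, followed by cells 8, 4 and 13 with 7.84, 7.73 and 7.59. Its median was 2.97, and cell 2 had 0. Zfp950 reached 9.26 in cell 14 against a median of 3.78, and Zfp655 reached 7.64, also in cell 14, against a median of 2.74. The highest level of any Zfp gene in any cell was that of Zfp865, named after its values were seen, at 10.88 in cell 4, where it ranked 56th among all rows. Cell 5 followed at 10.22, and the 12 remaining cells ran from 0.38 to 3.75. Of the words of Zfp865 36.6% occur in transcripts of other genes, so its reads may not all be its own. Zfp260, which in rodents works with Gata4 in heart muscle and was also named after its values were seen, stood at 10.16 in cell 8 and at no more than 3.78 elsewhere.

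**Figure D3:**
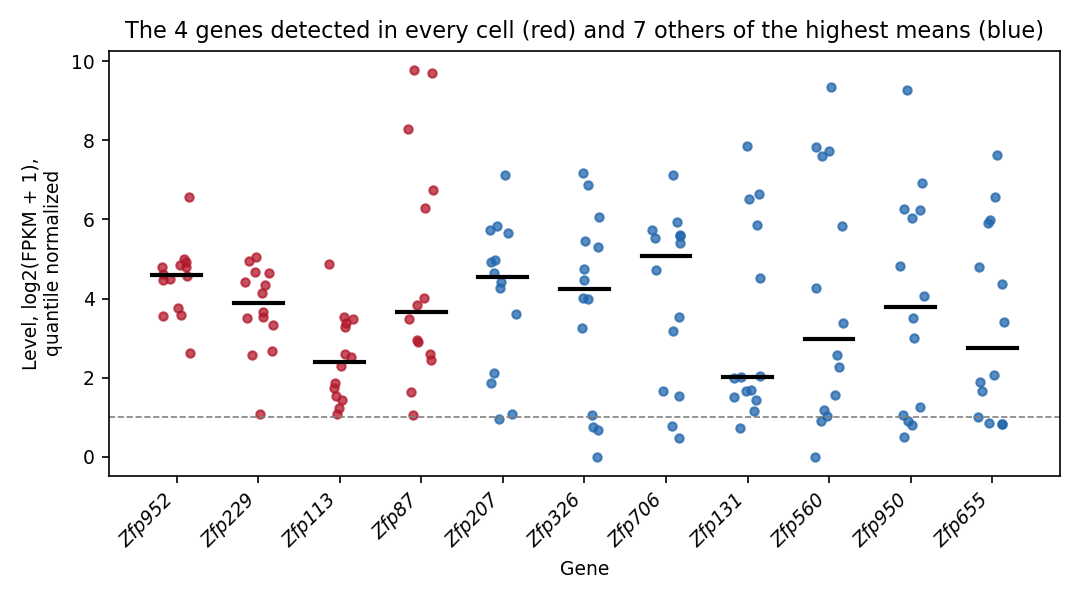
Level in each of the 14 cells (points) and the median (bars), as log2(FPKM + 1), of the 4 genes detected in every cell (red) and 7 others with the highest means (blue), with the detection threshold of 1 dashed. Zfp952 stays between 2.62 and 6.56, whereas Zfp87 runs up to 9.78 and Zfp560 from 0 to 9.35.

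Among the 43 genes detected in 5 to 9 cells, the 10 with the largest SD were chosen for their spread, and their values are given as a description. Zfp787 had an SD of 3.13, was at 0 in 5 cells and had its peaks of 8.77, 8.12, 6.29 and 5.02 in cells 14, 11, 13 and 5. Zfp945, a KRAB gene by the pattern, was led by cells 7, 13 and 5 with 8.39, 7.37 and 6.17, and 4 cells had 0. Zfp932 was at 7.44 in cell 13 and 6.38 in cell 14, but 73.5% of the 31-base words of its transcript also occur in transcripts of other genes, so how many of its reads belong to it is uncertain. Zfp672 had a median of only 0.22, yet cells 4, 5 and 7 held 6.96, 6.37 and 5.26. Zfp68 and Zfp62 reached 7.35 in cell 7 and 6.76 in cell 3. Zfp422, known in the mouse from tooth development as Krox-26, reached 7.12 in cell 11 and 6.17 in cell 9, with 33.7% of its words shared with other genes. Zfp579 reached 8.27 in cell 6, Zfp709 6.42 in cell 13, and Zfp503, a repressor known from the developing striatum, 6.31 in cell 7. The cell with the maximum differed from gene to gene, and no cell was the highest for more than 3 of these 10 genes.

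Genes with a known part in mesenchymal lineage choice were at the sparse end of the family. All 5 of the 8 listed genes that had a row were detected in at most 3 cells. That rule was met by 40.0% of all Zfp genes and 26.9% of all rows. The transcription factor Zfp521, which restrains osteoblast maturation in the mouse, had levels of 4.16, 2.99 and 1.43 in cells 1, 12 and 5, and of at most 0.67 elsewhere. Zfp423, which commits mouse cells to the preadipocyte fate, was detected in cell 9 alone, at 3.38. Zfp467, which in mouse marrow stroma favours adipocytes over osteoblasts, was at 5.12 in cell 5 and 2.15 in cell 2. Zfp384 (also Nmp4), which binds collagen promoters and limits bone formation in the mouse, had 3.57, 2.57 and 1.81 in cells 12, 10 and 14. Of its words 25.1% also occur in transcripts of other genes. Zfp64, a partner of Notch1 in mouse mesenchymal cells, had 5.33, 4.92 and 3.79 in cells 13, 3 and 4. Over the 5 genes 17.1% of combinations were detected, against 39.4% for all Zfp genes, so few cells could hold more than 1 of them. Cell 5 held Zfp521 and Zfp467, cell 12 held Zfp521 and Zfp384, a further 8 cells held 1 of the genes each, and cells 6, 7, 8 and 11 held none.

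Of 7 genes of RNA handling and ribosomes 4 were detected in at least 7 cells, where 51.7% of all rows were, so the count is near that of the table as a whole. Besides Zfp207 and Zfp326 these were Zfp622, whose yeast counterpart matures the large ribosomal subunit, and the RNA-binding protein gene Zfp106. Zfp622 passed the threshold in 8 cells, led by cells 8, 2 and 12 with 5.69, 5.61 and 4.19, and its median was 1.50. Zfp106 had 5.92, 3.32 and 3.13 in cells 5, 14 and 13 and a median of 1.02, and 26.2% of its words occur in other genes' transcripts. Zfp638 was detected in 5 cells, at most at 3.25. Zfp598, the ubiquitin ligase that in human cells marks collided ribosomes, stood at 6.51 in cell 3 and 1.09 in cell 5 and at no more than 0.39 elsewhere. Zfp346, which binds double-stranded RNA, was detected in cell 9 alone, at 3.16.

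Of 14 listed genes of chromatin and early embryo regulation 5 had a row, and 1 of them was detected in at least 7 cells. That rule was met by 35.0% of all Zfp genes and 51.7% of all rows. The 1 gene was Zfp644, a partner of the histone methyltransferase G9a. It was found in 9 cells and led by cells 1, 12 and 10 with 5.85, 5.72 and 4.85. Zfp148 was found in 6 cells, and cells 10 and 8 led with 4.79 and 4.09. Zfp281, known from the exit of mouse embryonic stem cells from pluripotency, was found in cells 11, 12, 8 and 13, with 5.15, 4.23, 4.18 and 1.82. Zfp410, known as an activator of the gene of the chromatin remodeller Chd4, was found in cells 13, 9, 14 and 4, with 4.53, 4.48, 3.98 and 1.55. Chd4 itself was detected in all 14 cells, from 2.75 to 8.60 with a median of 5.05. Zfp263 was detected in cells 11 and 14 alone, at 4.03 and 3.23.

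Of 5 listed signalling and regulatory genes with a row, Zfp703 was the most widely detected, in 8 cells, of which cells 2, 3 and 7 had 5.75, 4.88 and 4.66. Zfp704 was detected in cells 10 and 4, at 3.96 and 1.89, where Zfp703 was at 0 and 0.27. Zfp91, which in human cells ubiquitinates the kinase NIK, was found in cells 14, 11, 8 and 9, with 4.42, 4.35, 3.14 and 2.89. Zfp292 was at 5.06 in cell 1 and 1.89 in cell 9. Zfp318, which mouse B cells need to make immunoglobulin D, was detected in cell 1 alone, at 6.79.

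The 18 genes detected in a single cell were below 1 in all other cells by the choice itself. Their maxima ran from 3.13 (Zfp677, cell 8) to 6.84 (Zfp365, cell 6). Only Zfp365 and Zfp90 were at exactly 0 in all 13 other cells. Cell 9 alone held 4 of the 18, namely Zfp507 at 6.56, Zfp944 at 3.91, Zfp423 and Zfp346. Cell 1 held Zfp318, Zfp618 at 5.01 and Zfp777. Cell 8 held Zfp438 at 4.54, Zfp771 at 4.39 and Zfp677. Cell 10 held Zfp266 at 4.81, Zfp90 at 4.47 and Zfp943 at 3.90, and cell 7 held Zfp770 at 4.76. Cell 13 held Zfp369 at 4.62, and cell 12 held Zfp960 at 4.94 and Zfp97 at 4.64. Cells 2, 3, 4, 5, 11 and 14 had none of their own.

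Zfp97 and Zfp960 in cell 12 are a near-identical pair whose reads may not be separable. They lie near each other on chromosome 17, Zfp960 from 17064113 to 17089628 and Zfp97 from 17121415 to 17146831, both on the plus strand. Their longest coding sequences in GENCODE M21 are both 1638 bases long and differ at 30 of them (98.2% identical), with an identical run of 507 bases. Of the 31-base words of the shorter transcript, 86.8% occur in the other. The stretch of 150 coding bases that holds the most differences, coding bases 1195 to 1344 within the zinc finger repeats, is shown to make clear how little sets the 2 genes apart, with the 18 differing bases in capitals.
Zfp97 coding, chr17:17145435-17145584, plus strand: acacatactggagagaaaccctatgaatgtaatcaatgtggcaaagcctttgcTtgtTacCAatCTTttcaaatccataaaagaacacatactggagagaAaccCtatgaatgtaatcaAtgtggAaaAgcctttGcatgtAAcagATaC
Zfp960 coding, chr17:17088220-17088369, plus strand: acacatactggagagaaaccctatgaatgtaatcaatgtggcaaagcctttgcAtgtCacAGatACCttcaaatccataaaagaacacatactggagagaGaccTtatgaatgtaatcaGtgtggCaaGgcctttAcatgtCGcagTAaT
In the 13 other cells Zfp97 was at most at 0.48 and Zfp960 at most at 0.46, so neither was detected there. Their levels over the 14 cells had a Pearson correlation of 0.991, which rests on cell 12, and a Spearman correlation of 0.60. The sources used here do not say how reads that match both genes were assigned, so the 2 values in cell 12 may be a single signal. This pair was the exception. Another pair, Zfp944 and Zfp942, shared 15.5% of the words of the shorter transcript, and no further pair of Zfp genes reached 10%. Against transcripts of any gene on either strand, overlapping genes included, the Zfp genes had a median of 2.46% shared words, against 0.80% for 9215 other rows. The share was 50% or more for 8 Zfp genes, namely Zfp960, Zfp97, Zfp932, Zfp90, Zfp931, Zfp345, Zfp617 and Zfp524. It was 10% or more for 44, among them Zfp507 (28.8%), Zfp944 (23.1%), Zfp704 (18.6%) and Zfp950 (17.9%). The reads of such genes may not all be their own.

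The Zfp genes were spread unevenly, with 26 on chromosome 7 and 19 on chromosome 17. With members joined when less than 500 kb apart, 56 genes fell into 17 groups of neighbours. Neighbours were detected in 44.9% of gene and cell combinations and the 84 lone genes in 35.7%. Levels of neighbours were hardly more alike than those of any Zfp genes: the median Spearman correlation over the 14 cells was 0.06 over 88 pairs of neighbours and 0.01 over all 9730 pairs. These values share the cells' libraries and normalization and are given as a description.

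A group of 4 genes with the KRAB pattern on chromosome 13, from 67405709 to 67687071, is described in full after its values were seen. Zfp748 was highest in cells 11, 10 and 12, at 5.86, 5.31 and 3.64, and otherwise ran from 0 to 2.48. Zfp738 was at 3.99, 3.16 and 2.27 in the same cells 11, 10 and 12, at 2.96 in cell 3 and below 1 in all others. Zfp87, as given above, had its 3 highest levels in these cells as well. Zfp459 did not share the pattern, with its maximum of 4.28 in cell 6 and 1.92, 1.18 and 0.72 in cells 11, 10 and 12. Zfp87 and Zfp748 had a Spearman correlation of 0.70 and a Pearson correlation of 0.84 over the cells, and Zfp87 and Zfp738 of 0.46 and 0.70. Of the words of the shorter transcript, 2.21% occur in both Zfp748 and Zfp87 and 1.91% in both Zfp738 and Zfp87, while transcripts of any other gene hold 10.7% of the words of Zfp87, 12.03% of those of Zfp748, 27.4% of those of Zfp738 and 21.9% of those of Zfp459. Whether shared reads take part in the common pattern was not tested.

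**Figure D4:**
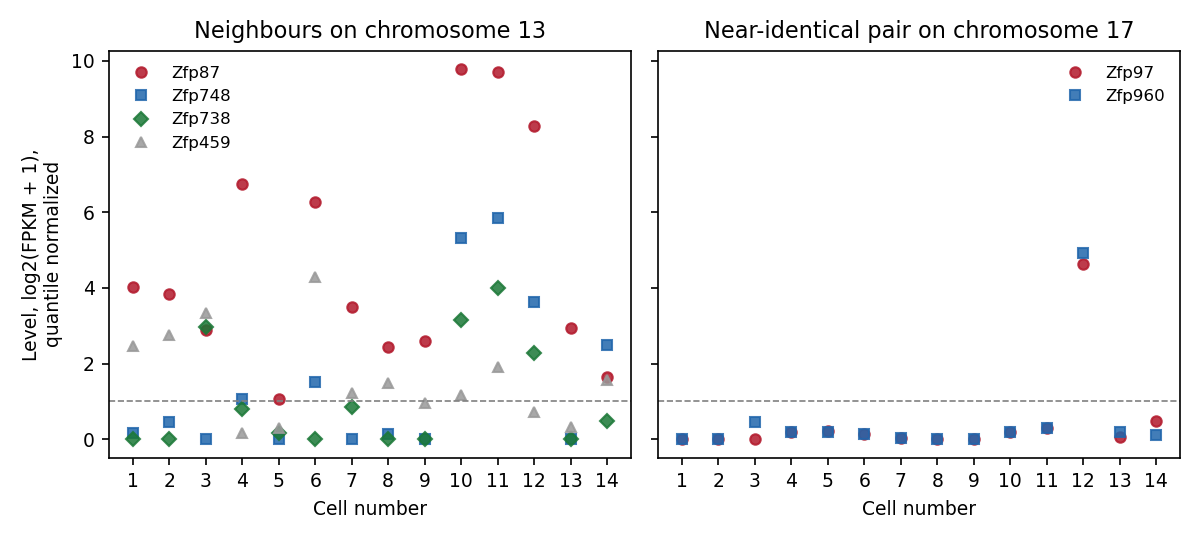
Levels, as log2(FPKM + 1), in each of the 14 cells of 4 neighbours on chromosome 13 (left) and of the near-identical pair on chromosome 17 (right), with the detection threshold of 1 dashed. Zfp87, Zfp748 and Zfp738 are high together in cells 10 to 12, and Zfp97 and Zfp960 rise above the threshold in cell 12 alone, at 4.64 and 4.94.

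Of the 140 genes 138 are annotated as protein-coding and 2, Zfp125 and Zfp783, as transcribed pseudogenes. C2H2 fingers were counted in the longest coding sequence as 2 cysteines 2 residues apart, 12 residues, and 2 histidines 3 to 5 residues apart. The median was 9 fingers and the maximum 32, in Zfp142, whereas 8 genes had no match, Zfp703, Zfp704, Zfp503 and Zfp609 among them. A KRAB pattern was found in 61 genes. These 61 had a median of 12 fingers, against 5 in the 77 others, and a median of 6.97% shared words, against 0.77%. Genes with the pattern were detected in 42.5% of combinations and those without it in 36.9%. The pattern is a short match, so genes without it may still encode a KRAB domain. All 4 genes detected in every cell were among the 61. The share of genes with the pattern was 47.3% among genes detected in 1 to 3 cells, 28.6% at 4 to 6, 43.5% at 7 to 9 and 60.0% at 10 to 14, with no steady order. These differences were not tested. A level of 5 was reached in some cell by 28 of the 61 (45.9%), against 43 of the 77 others (55.8%). Genes are not independent replicates, and as a description across them the number of cells detected had a Spearman correlation of 0.12 with the number of fingers, 0.08 with the share of shared words and 0.13 with exonic length.

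The partners of KRAB proteins were detected more widely than the Zfp genes. Of 18 listed genes of the Trim28 pathway and its chromatin partners 16 are in the table. Of these 16 genes 12 passed the threshold in at least 7 cells, where 51.7% of all rows did. All 14 cells held Trim28, with levels from 1.03 over a median of 3.42 to 10.04 in cell 2, and likewise the histone deacetylase gene Hdac1 (median 4.87), the remodeller gene Smarcad1 (3.37) and Chd4. Setdb1, the methyltransferase that Trim28 recruits, was detected in 10 cells at a median of 1.32 and was highest in cell 7. The heterochromatin protein genes Cbx1, Cbx3 and Cbx5 were detected in 13, 11 and 6 cells. Dnmt1 was detected in 2 cells and Morc3 in 3. The share of detected combinations was 39.4% for the Zfp genes, against 67.9% for these 16 genes and 53.0% for all rows.

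Other zinc finger families gave values on both sides of the Zfp genes. Against 39.4% for the Zfp genes, the 23 Zbtb genes were detected in 39.1% of combinations, the 8 Zscan or Zkscan genes in 25.9% and the 10 Zc3h genes, whose fingers are of another type that binds RNA, in 51.4%. None of the Zbtb, Zscan or Zkscan genes was detected in every cell, and 2 Zc3h genes were. These families are small, and the differences between them and the Zfp genes were not tested.

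The number of detected Zfp genes per cell ran from 40 in cell 13 and 43 in cell 5 to 63 in cell 14 and 67 in cell 11. The median was 57.5 and the SD 7.19. Since each cell has 5066 detected rows, these counts are shares of a fixed number. The number at 5 or more ran from 6 in cells 3 and 10 to 13 in cell 6. The 2 highest counts were those of cells 11 and 14, the cells with the highest pan-haematopoietic levels, whereas cells 6 and 8, which followed in that level, had 58 and 54. All 8 pan-haematopoietic genes were detected in both cells 11 and 14. Of 7 neutrophil genes with a row 5 were detected in both. The sum over the 7 was 62.5 in each of these cells, against 22.2 to 75.2 in the others. The 5 were not particular to cells 11 and 14, as Retnlg, Lcn2, Ngp and Camp were detected in all 14 cells and Ltf in 13. Elane, detected in 3 cells, was at 0 in both. Of 4 macrophage genes 3 were detected in both, with a sum of 42.8 in cell 14, against 4.44 to 23.7 in the other 12 cells, a range that also takes in the sum of cell 11. The 3 were Cd14, Lyz2 and Ctss, which were detected in 14, 13 and 11 cells. The part of leukocyte genes in the Zfp counts was not tested. In all 4 Zfp genes had their 2 highest values in cells 11 and 14, namely Zfp787, Zfp91, Zfp263 and Zfp592, the last with 4.60, 2.85 and 2.29 in cells 11, 14 and 12. Of all Zfp genes 1, Zfp263, was detected in cells 11 and 14 and in no other. Neither count has a share over all rows beside it, so neither is read as particular to the Zfp genes or to these cells. Without both cells the share of detected combinations was 38.2%, and the same number of genes, 4, was detected in every remaining cell. In at most 3 of the remaining cells 73 genes were detected, against 56 in at most 3 of all 14. Leaving out cells cannot lower either of these counts.

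**Figure D5:**
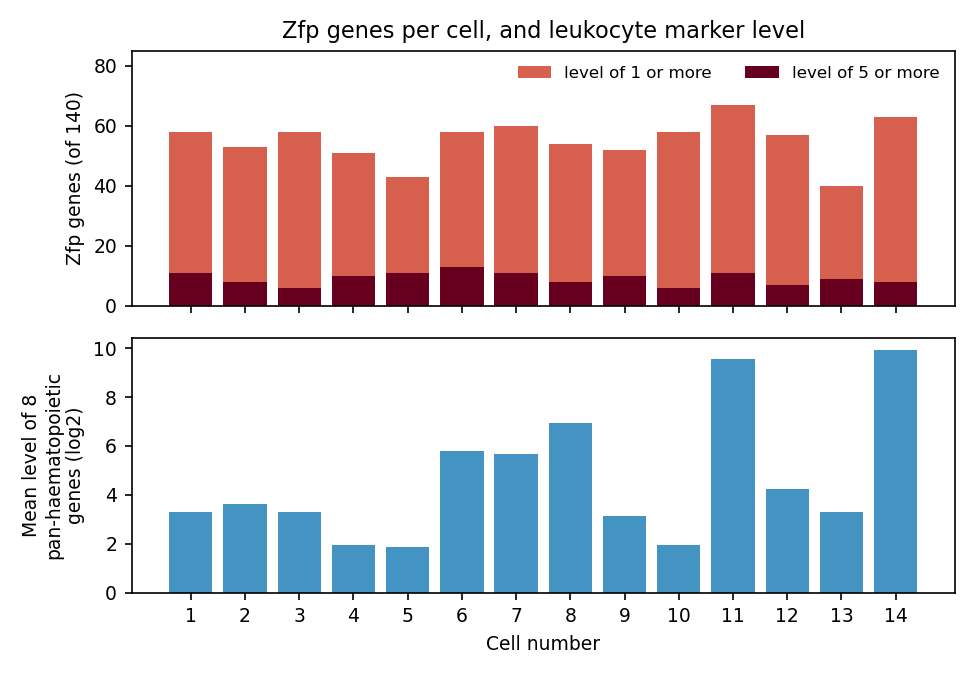
Number of Zfp genes at a level of 1 or more (light bars, drawn from 0) and at 5 or more (dark bars, drawn over them) in each cell (top), and the mean level of 8 pan-haematopoietic genes in the same cells (bottom). Cells 11 and 14 have 67 and 63 detected Zfp genes and the highest leukocyte level, whereas cells 6 and 8 have 58 and 54.

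Pairs of cells had a smaller share of Zfp genes in common than of all rows. Over the 91 pairs a median of 31 Zfp genes were detected in both cells, from 17 in cells 4 and 8 to 46 in cells 3 and 11. As a share of the genes detected in either cell this was a median of 38.6%, with a range of 19.3% to 58.2%, against a median of 54.5% for all rows. Sparse detection by itself lowers such a share, and detection was 39.4% for the Zfp genes and 53.0% for all rows. Whether the difference in overlap goes beyond this was not tested. Levels of 5 or more were rare, 6.58% of the Zfp values against 18.8% of all values, so little overlap can be found there. At that level 25 of the 91 pairs had no Zfp gene in common, and the most any pair had was 4. Cells 4 and 5 had Zfp560, Zfp865, Zfp637 and Zfp672 in common at that level, and cells 4 and 12 had Zfp87, Zfp560, Zfp932 and Zfp286.

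The cells were clustered by which rows other than the Zfp genes were at exactly 0, and were taken as 2 sets. Cells 3, 4, 11, 12 and 13 made up one set and the other 9 cells the other. How well 2 sets describe the cells was not tested. These sets are a description drawn from the values, as the labels know no such groups. The Zfp genes followed them weakly. Among the 84 Zfp genes at 0 somewhere, presence in a pair of cells correlated with a median of 0.24 within the sets and 0.13 between them, with overlapping ranges. Detection was 39.0% in the smaller set and 39.6% in the larger. No Zfp gene was above 0 in all cells of a set and at 0 in all of the other. Corresponding values for the other rows are not given, so none of this is read as particular to the Zfp genes.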

How the data were processed

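Per the labels' protocols, libraries of single picked cells came from a SMART-Seq 3' end kit and Nextera XT. The submitters' processing notes list TopHat2, Cufflinks and GRCm38 and give no versions. The deposited values were read as log2(FPKM + 1) and as quantile normalized by the authors. Their range is that of log2 values, and each cell has the same number of rows at 1 or more (5066) and at 5 or more (1801). The number of rows at exactly 0 differs between cells. No label or header records the log2 step or the normalization. All 14 value columns matched a sample by title. Dividing by length understates long genes in a 3' library, and the exonic length had a median of 5359 bases for the Zfp genes and 4386.5 for other rows. The sources used here do not say how rows were chosen, and genes without a row were not analysed here.

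Detection, means and SDs over cells were computed in Python 3.11.15 with pandas 2.3.3, numpy 2.4.6 and scipy 1.17.1. Positions, exonic lengths and coding sequences came from GENCODE M21 (GRCm38). Upstream sequences came from RefSeq (GRCm38.p6), the first entry per gene except in the shares over all listed promoters. Words of 31 bases were compared over all GENCODE transcripts on both strands. The KRAB pattern was a short residue match to its A box. Promoter motifs were searched on both strands. Detection counts, finger counts and shared words were tested on simulated data. Named genes are those in every cell, the 10 highest means, the 10 largest SDs among genes in 5 to 9 cells, members of 4 role lists, and genes in at most 1 cell. The members and lists were chosen with earlier results of these data known. Thresholds, cells and length division were varied.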

Additional observations from a re-analysis of the deposited data

How the results depend on the processing

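No paired analysis was possible because all cells belong to 1 group. The counts follow the threshold. At 4 other thresholds (any value above 0, FPKM 5, FPKM 10 and, chosen after seeing the data, log2 2), the median number of Zfp genes per cell was 108, 26.5, 20 and 33, against 57.5. The number detected in every cell was 56, 1, 0 and 1, against 4, and the number in at most 3 cells was 5, 107, 121 and 92, against 56. Mean detection was 77.2%, 19.4%, 14.5% and 23.7%, against 39.4%. Detection stayed below that of the other rows in all of these, with a difference of -3.59 percentage points for values above 0 and of -17.1 to -14.2 at the 3 other thresholds, against -13.8.

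The median level was 1.31 with the length division undone, 0.31 with a pseudocount of 10 and 1.47 for genes detected in at least 3 cells, against 1.13. Undoing the length division gave 41.9% detection and 5 genes in every cell. The difference from the other rows was then -11.3 percentage points, against -13.8. Leaving out each cell in turn gave 57 to 58 genes per cell, 38.7% to 40.2% detection, a difference of -14.5 to -13.0 points and a median level of 1.10 to 1.18. It also gave 4 to 6 genes in every cell and 59 to 65 in at most 3 cells. Leaving out a cell cannot lower these last counts, so they do not speak to stability. Settings added after seeing the data, without cells 6, 8, 11 and 14 or without genes sharing 10% or more of their words, gave 37.9% and 39.3% detection. Depth is unknown, so a value of 0 cannot be read as absence of a transcript.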
